A study of Homo sapiens with 6 samples.

Results

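Expression of 37 genes of the unfolded protein response and the amino acid stress response was examined in HT1080, a human fibrosarcoma cell line. The genes were a given list, chosen with earlier results of these data known. Every probe set whose single gene symbol in the platform annotation was on that list was used. This gave 54 of the 22283 probe sets, which covered 35 of the 37 genes. DNAJB11 and SESN2 had no probe set named for them alone. Of the 35 genes, 33 had a probe set above the filter on dim signals (mean signal above 47.5) and were tested among 8045 genes, while DNAJC3 and NUPR1 lay below it. The series compared 3 groups of 2 arrays. Mock cells (titled GUS) carried the pGUS vector that expresses GFP and nothing else. The second group (MT1) carried the same GFP vector with an siRNA against the mRNA of MT1-MMP, a membrane-anchored collagenase encoded by MMP14. The third group (alpha3) carried it with an siRNA against integrin alpha3, a laminin receptor chain encoded by ITGA3. All 3 groups therefore carried the vector and GFP. The labels do not say whether cells were cloned or pooled, how long they carried the vector, or whether paired arrays stem from separate cultures. The p-values therefore cover only the spread between the deposited arrays, and that spread may be technical. Below, MT1 cells and alpha3 cells stand for the 2 siRNA groups, and values are given for array 1 and then array 2.

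The unfolded protein response is the programme by which a cell adjusts the endoplasmic reticulum, the compartment where secreted and membrane proteins fold. Its sensors are PERK (EIF2AK3), IRE1 (ERN1) and ATF6, which raise chaperones, disulphide-forming enzymes and the machinery that returns misfolded proteins for degradation. PERK also phosphorylates the translation factor eIF2, as does the amino acid sensor GCN2, and both favour translation of the transcription factor ATF4. ATF4 in turn drives genes of amino acid synthesis and import and feedback regulators such as TRIB3. Secretory mesenchymal cells, which export much collagen and fibronectin, rely on this folding machinery.

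The folding branch and the amino acid branch are known for different promoter elements, and these are shown because the genes that carry them are followed below. The endoplasmic reticulum stress response element was searched as CCAAT and CCACG with 9 bases between them. The composite core bound by ATF4 with C/EBP factors was searched as TGATGNAA. Promoters of 33 of the 37 genes were found in the RefSeq table (GRCh38.p14, 250 bases before to 50 after the start), and PDIA3, PSPH, SHMT2 and NUPR1 were not matched. Searched on both strands, the stress element occurred in 5 of the 33 promoters (15.2%) against 22 of 27305 promoters in the table (0.0806%). The composite core occurred in 4 of 33 (12.1%) against 1003 of 27305 (3.67%). The XBP1 element core, TGACGTGG, occurred in 1 of 33 (3.03%), HYOU1, against 217 of 27305 (0.795%). The elements were chosen as those the listed pathways are known for, so these shares are a description and no test of enrichment. In the exact letters searched, no promoter among the 33 held more than 1 kind of element. Other forms of the elements, such as other spacings of CCAAT and CCACG, were not searched. The lines below give each stress element in capitals with 20 bases on either side, 5′ to 3′ on the strand of the gene, for HSPA5 (chr9:125241371-125241429, minus strand), XBP1 (chr22:28800583-28800641, minus strand), CANX (chr5:179698758-179698816, plus strand), CALR (chr19:12938364-12938422, plus strand, element on the opposite strand) and HSP90B1 (chr12:103930196-103930359, plus strand, with 2 elements, the second on the opposite strand).
HSPA5: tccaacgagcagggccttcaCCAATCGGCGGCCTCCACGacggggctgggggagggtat
XBP1: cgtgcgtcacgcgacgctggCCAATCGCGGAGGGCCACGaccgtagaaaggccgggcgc
CANX: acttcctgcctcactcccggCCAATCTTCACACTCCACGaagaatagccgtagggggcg
CALR: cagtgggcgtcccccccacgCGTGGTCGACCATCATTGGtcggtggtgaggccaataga
HSP90B1: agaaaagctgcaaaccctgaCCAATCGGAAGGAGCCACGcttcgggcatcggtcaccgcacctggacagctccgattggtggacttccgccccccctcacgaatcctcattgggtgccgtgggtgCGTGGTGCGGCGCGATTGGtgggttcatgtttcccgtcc

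The composite core lay before the start in ASNS (chr7:97872449-97872496, minus strand), CHAC1 (chr15:40953242-40953289, plus strand) and HERPUD1 (chr16:56931946-56931993, plus strand), and after the start in SLC3A2. It is in capitals in the next lines, as its reverse complement in CHAC1 and HERPUD1. A match describes these letters and does not show that a factor bound there.
ASNS: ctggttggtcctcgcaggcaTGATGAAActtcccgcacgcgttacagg
CHAC1: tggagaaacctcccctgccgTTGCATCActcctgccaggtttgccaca
HERPUD1: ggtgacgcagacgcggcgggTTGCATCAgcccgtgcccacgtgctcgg

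The deposited values were signal intensities scaled to the same trimmed mean (250.1) on every array, with array medians between 72.9 and 83.1. MMP14 had signals of 1971 and 3064 in mock cells, 812 and 717 in MT1 cells, and 999 and 1804 in alpha3 cells. ITGA3 had 1139 and 1290, 1481 and 1634, and 148 and 347. Each target was thus lowest under its own siRNA, without passing the threshold against mock (limma adjusted p = 0.139 for MMP14 and 0.136 for ITGA3). All 9 mesenchymal markers were above the filter, with summed signals of 23559 and 27964 in mock cells, 47663 and 37317 in MT1 cells, and 28406 and 23523 in alpha3 cells. None of the 6 epithelial markers was above it, and of the leukocyte, endothelial and erythroid markers only CD3E, PECAM1 and HBB were, at 48.6 to 158. The 18 spiked hybridisation controls stood, by their median, at 2.30 and 1.29 times the mock mean for MT1, 0.812 and 0.841 times for alpha3, and 0.927 and 1.07 times for mock itself. The part of these differences in the results below was not tested.

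No stress gene passed the threshold of a limma adjusted p under 0.05 in any of the 3 comparisons. The widest differences against mock were a higher signal of the membrane-bound factor CREB3L1 with either siRNA, by its brighter probe set. That probe set passed the filter only through the siRNA arrays, and the other gave log2 fold changes of 0.41 in MT1 cells and 0.53 in alpha3 cells. Between the siRNAs the widest differences were lower signals in MT1 cells of the cochaperone SDF2L1 and of CREB3L1 by its brighter probe set. The disulphide isomerase PDIA3 followed, with a higher signal in MT1 cells. The other CREB3L1 probe set gave -0.12 between the siRNAs, with overlapping arrays. Against mock, MT1 cells gave a median log2 fold change of 0.27 over the 33 genes, beside 0.00 over all 8045, with 23 above 0 and 10 below. The alpha3 cells gave a median of 0.05, beside -0.01 over all genes, with 19 above 0 and 14 below. Both comparisons share the mock arrays, and the third reuses the siRNA arrays of both. Between the siRNAs, MT1 minus alpha3, the median was 0.16, beside 0.02 over all genes, with 19 above 0 and 14 below. A log2 fold change here is a difference of mean log2(signal + 32), which understates changes of dim genes, and ± after it gives the limma standard error.

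**Figure D1:**
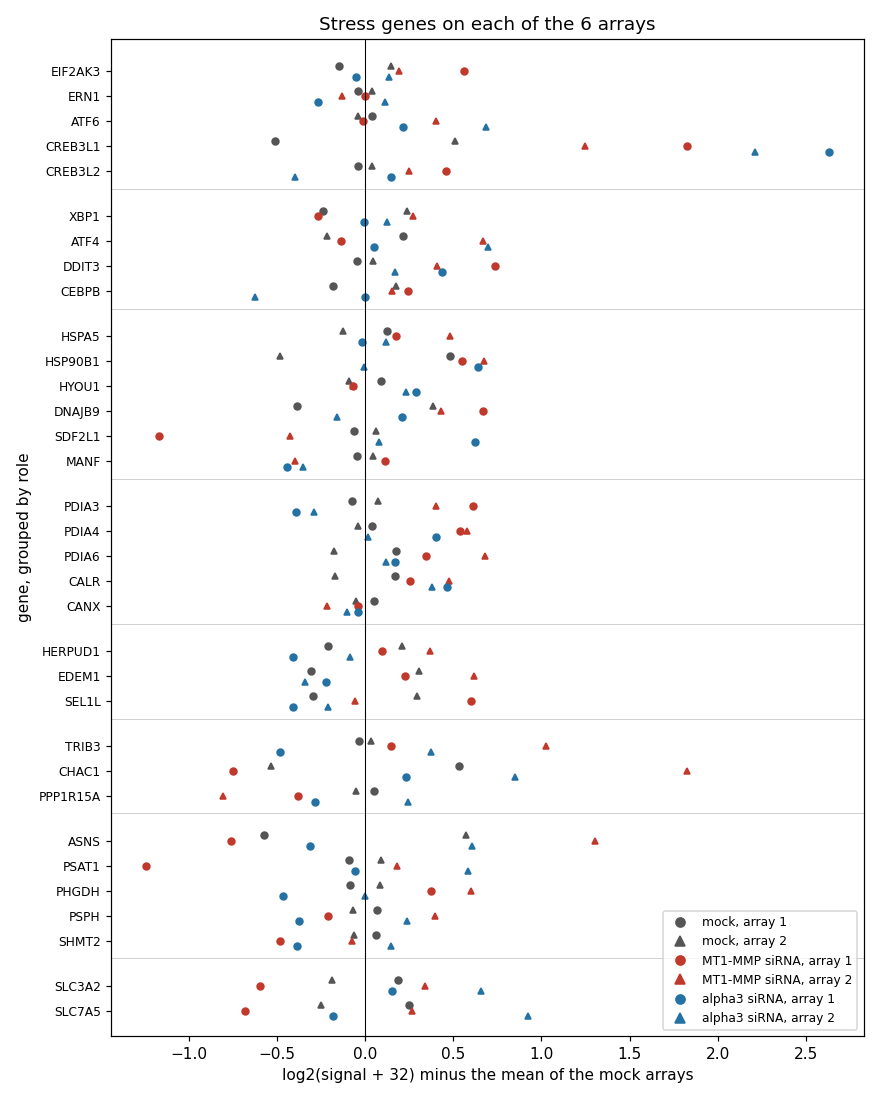
Each row is 1 of the 33 tested genes, grouped by role from the stress sensors at the top to the amino acid transporters at the bottom. The horizontal axis is log2(signal + 32) minus the mean of the mock arrays, and each point is 1 array (circles for array 1, triangles for array 2). CREB3L1, by its brighter probe set, stands out to the right in both siRNA groups, and ASNS, CHAC1 and PSAT1 spread widely within the MT1 pair.

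The counts were read against those over all genes, and the list was chosen with earlier results of these data known. With MT1 against mock, 0 of 33 stress genes and 0 of 8045 genes (0%) passed (lowest adjusted p among the stress genes 0.165). At an unadjusted p under 0.05 there were 7 of the 33, 5 higher and 2 lower, where 14.4% of all genes reached it. The arrays did not overlap for 13 stress genes that lay higher, against 24.6% of all genes, and for 3 that lay lower, against 25.3%. With alpha3 against mock, 0 of 33 passed, against 0.0249% of all genes, and 1 had an unadjusted p under 0.05, against 5.73%. Arrays did not overlap for 6 higher and 2 lower stress genes, against 16.4% and 18.0% of all genes. Between the siRNAs, 0 of 33 passed, against 1.39%, and 6 had an unadjusted p under 0.05, against 23.4%. There the arrays did not overlap for 12 stress genes higher in MT1 cells and 4 lower, against 28.0% and 25.9%. Against mock, 69.7% of the stress genes had a log2 fold change above 0 in MT1 cells, beside 50.3% of all genes, and 57.6% did in alpha3 cells, beside 48.0%. The medians depended on single arrays. That of MT1 against mock was 0.11 without MT1 replicate 2 and 0.16 without mock replicate 1. That of MT1 against alpha3 was -0.02 without alpha3 replicate 1, 0.07 without MT1 replicate 2 and 0.25 without MT1 replicate 1, and that of alpha3 against mock lay between -0.02 and 0.13.

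**Figure D2:**
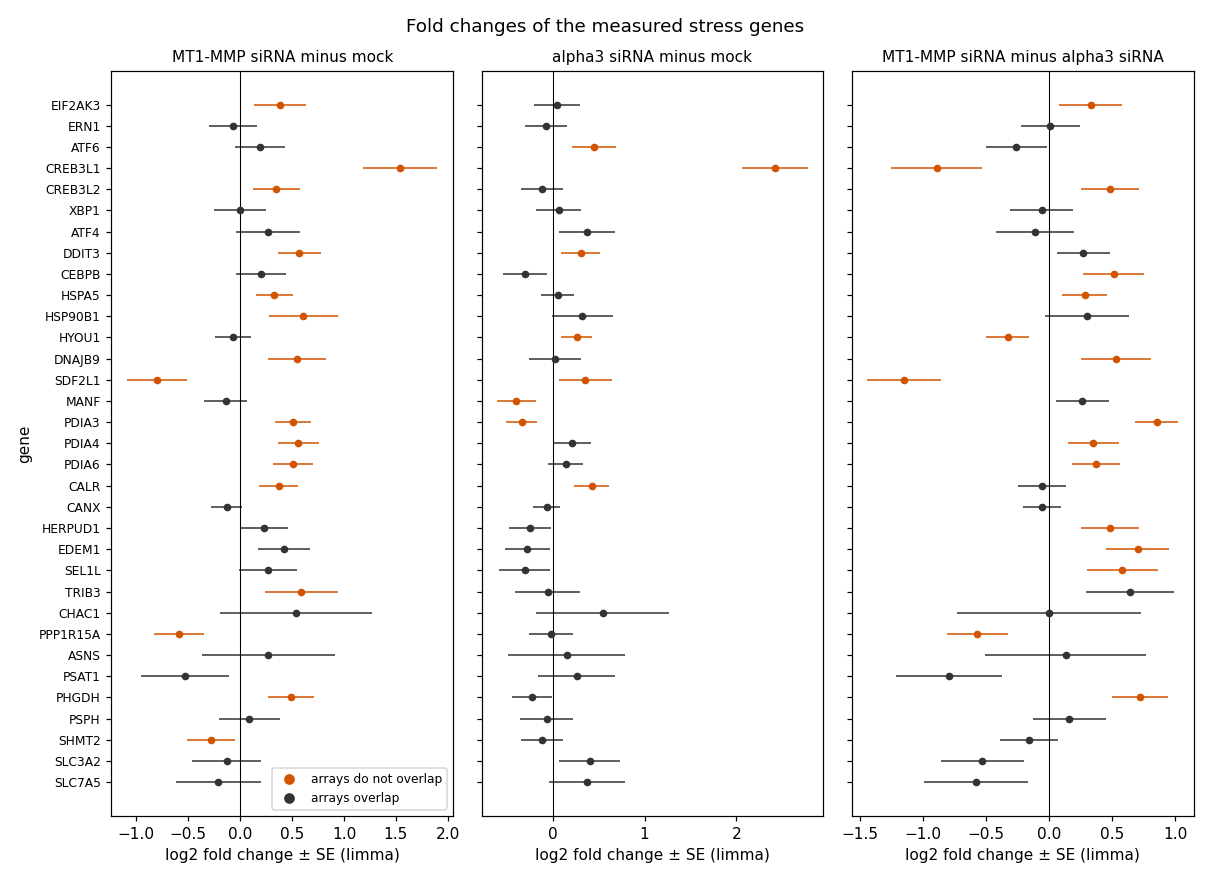
Each point is the log2 fold change of 1 stress gene with its standard error from limma, for MT1 minus mock (left), alpha3 minus mock (middle) and MT1 minus alpha3 (right). The panels have different horizontal scales, and orange points are genes whose arrays did not overlap between the groups compared. PDIA3, PDIA4 and PDIA6 lie at 0.51 to 0.56 on the left. CREB3L1, by its brighter probe set, lies at 1.54 on the left and 2.42 in the middle.

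Among the sensors and membrane-bound factors, CREB3L1 differed most. CREB3L1 (OASIS) is a transcription factor held in the endoplasmic reticulum membrane until it is cleaved, and it is known for driving collagen production in bone. Its signals were 16.2 and 66.0 in mock cells, 212 and 131 in MT1 cells, and 394 and 286 in alpha3 cells. The 3 groups did not overlap, with mock lowest and alpha3 highest. The mock mean of 41.1 was under the filter level of 47.5, so this probe set passed the filter, and was the brighter of 2, only through the siRNA arrays. The mock signal is not shown to lie above background, which leaves the size of the fold uncertain. The log2 fold change was 2.42 in alpha3 cells (± 0.36, adjusted p = 0.143) and 1.54 in MT1 cells (± 0.36, adjusted p = 0.165), and the siRNAs differed by -0.89 ± 0.36 (adjusted p = 0.190). The mock arrays differed from each other by 1.02 on the log2 scale, and without mock replicate 1 the log2 fold changes were 1.91 and 1.02. The other CREB3L1 probe set had 24.7 and 120.6 in mock cells, 98.7 and 85.1 in MT1 cells, and 119 and 87.6 in alpha3 cells. There the second mock array was as high as the siRNA arrays, and the log2 fold changes were 0.53 in alpha3 cells and 0.41 in MT1 cells. Between the siRNAs this other probe set gave -0.12, with overlapping arrays.

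The 3 classical sensors varied less. EIF2AK3, the kinase PERK, had 58.1 and 78.9 in mock cells, 116 and 82.3 in MT1 cells, and 64.6 and 78.0 in alpha3 cells. Both MT1 arrays were above the other 4, and the second by only a little (log2 fold change against mock 0.38 ± 0.25, adjusted p = 0.518). ERN1, the nuclease and kinase IRE1 that splices XBP1 mRNA, had 81.4 and 88.1, 84.5 and 74.5, and 65.1 and 94.3 in the same order, and all 3 groups overlapped. ATF6, released from the membrane by proteolysis, had 167 and 157 in mock cells, 160.3 and 225 in MT1 cells, and 194 and 279.7 in alpha3 cells. It was higher on both alpha3 arrays than in mock cells (log2 fold change 0.45 ± 0.24, adjusted p = 0.864). CREB3L2, a relative of CREB3L1, had a log2 fold change of 0.35 in MT1 cells, without overlap, and -0.12 in alpha3 cells.

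The transcription factors XBP1 and ATF4 did not separate the groups. XBP1, whose mRNA IRE1 splices into the active form, had signals of 298 and 428 in mock cells, 292 and 437 in MT1 cells, and 356 and 393 in alpha3 cells. These array values do not distinguish spliced from unspliced XBP1 mRNA. ATF4 had 2295 and 1699, 1796 and 3157, and 2047 and 3222 in the same order. Its second array was the higher one in both siRNA groups, and the groups overlapped. DDIT3 (CHOP), a factor linked to cell death under prolonged stress, had 129 and 139 in mock cells, 244 and 188 in MT1 cells, and 192 and 155 in alpha3 cells. It was above mock on all 4 siRNA arrays, with log2 fold changes of 0.57 ± 0.21 (adjusted p = 0.286) and 0.30 ± 0.21 (adjusted p = 0.901). CEBPB, a partner of ATF4, had log2 fold changes of 0.20 and -0.31, with overlap in both.

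The chaperones of the endoplasmic reticulum were mixed, with 3 of 6 tested genes above 0 in MT1 cells and 5 of 6 in alpha3 cells. HSPA5 (BiP), the main chaperone of the compartment and a carrier of the stress element shown above, had signals of 3551 and 2977 in mock cells, 3674 and 4550 in MT1 cells, and 3214 and 3532 in alpha3 cells. The MT1 arrays were the highest, the first of them close to the first mock array (log2 fold change against mock 0.33 ± 0.18, adjusted p = 0.435). HSP90B1 (GRP94), a chaperone of secreted and membrane proteins, had 1216 and 607 in mock cells, 1275 and 1392 in MT1 cells, and 1358 and 856 in alpha3 cells. Mock array 2 lay at 0.512 times mock array 1 on the scale used here, and the log2 fold change of 0.61 in MT1 cells (± 0.33, adjusted p = 0.432) was 0.13 without mock replicate 2. It was 0.14 on the other HSP90B1 probe set. DNAJB9, a cochaperone of BiP, had 222 and 401 in mock cells, 496 and 415 in MT1 cells, and 350.5 and 265 in alpha3 cells. Its log2 fold change between the siRNAs was 0.53 ± 0.28 (adjusted p = 0.295).

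SDF2L1 had the lowest log2 fold change of the tested chaperones in MT1 cells against mock. It is a luminal partner of BiP and of its J-domain cochaperones. Its signals were 321 and 354 in mock cells, 132 and 243 in MT1 cells, and 537 and 358 in alpha3 cells. The groups did not overlap, with MT1 lowest and alpha3 highest, although the second alpha3 array nearly matched the second mock array. The log2 fold change was -0.80 in MT1 cells (± 0.29, adjusted p = 0.281), 0.35 in alpha3 cells (± 0.29, adjusted p = 0.915) and -1.15 between the siRNAs (± 0.29, adjusted p = 0.0759). HYOU1, a large chaperone related to the heat shock proteins, had 1562 and 1374 in mock cells, 1398 and 1398 in MT1 cells, and 1798 and 1727 in alpha3 cells. Its MT1 arrays lay below both alpha3 arrays (log2 fold change -0.33 ± 0.17, adjusted p = 0.280). MANF, a secreted protein that is retained in the compartment at rest, had 1203 and 1283 in mock cells, 1347 and 936 in MT1 cells, and 905 and 967 in alpha3 cells. It was lower on both alpha3 arrays than in mock cells (log2 fold change -0.40 ± 0.21, adjusted p = 0.864). DNAJC3, an inhibitor of PERK, lay below the filter with signals between 8.2 and 55.2, its 2 lowest values in MT1 cells.

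The oxidoreductases form and rearrange disulphide bonds, and none passed the threshold. With the lectins, 4 of the 5 genes of this group lay above mock on both MT1 arrays by the brightest probe set, where 24.6% of all genes did. PDIA3 (ERp57), which works with the lectins calnexin and calreticulin on glycoproteins, had signals of 1831 and 2037 in mock cells, 2974 and 2563 in MT1 cells, and 1465 and 1572 in alpha3 cells. The 3 groups did not overlap, and mock lay between the siRNAs. The difference between the siRNAs was 0.85 on the log2 scale (± 0.17, adjusted p = 0.0538), the lowest adjusted p of any stress gene, and PDIA3 passed with a filter at the 60th percentile (adjusted p = 0.0475). Against mock it was 0.51 in MT1 cells (± 0.17, adjusted p = 0.253) and -0.34 in alpha3 cells (± 0.17, adjusted p = 0.863). PDIA4 (ERp72) had 766 and 726 in mock cells, 1097 and 1129 in MT1 cells, and 997 and 755 in alpha3 cells. Its log2 fold change in MT1 cells was 0.56 ± 0.20 (adjusted p = 0.266), and a second probe set gave 0.08 with overlapping arrays. PDIA6 had 0.51 without overlap (± 0.19, adjusted p = 0.281), and its 4 probe sets ranged from 0.27 to 0.68.

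The lectins that hold unfolded glycoproteins differed from each other by the brightest probe set. CALR, calreticulin, had signals of 1596 and 1253 in mock cells, 1695 and 1980 in MT1 cells, and 1964 and 1853 in alpha3 cells. All 4 siRNA arrays were above both mock arrays, with log2 fold changes of 0.37 ± 0.19 (adjusted p = 0.409) and 0.42 ± 0.19 (adjusted p = 0.855). Its 3 probe sets ranged from 0.35 to 0.40 in MT1 cells and from 0.22 to 0.67 in alpha3 cells. Calnexin (CANX), its membrane-bound relative, had log2 fold changes of -0.13 and -0.07 by the brightest probe set, with overlap in both. The 3 CANX probe sets ranged from -0.13 to 0.03 and from -0.07 to 0.31. On both dimmer CANX probe sets, both alpha3 arrays lay above both mock arrays (0.30 and 0.31), while MT1 overlapped with mock. Of the 5 genes with the searched form of the stress element in the promoter, XBP1 and CANX overlapped with mock in MT1 cells. By the brightest probe set, HSPA5, HSP90B1 and CALR were higher on both MT1 arrays than in mock cells, where 24.6% of all genes were. The other probe sets of HSP90B1 and CALR overlapped with mock too.

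None of the 3 degradation genes passed the threshold. By the brightest probe set, both MT1 arrays lay above both alpha3 arrays for all 3, as they did for 28.0% of all genes. HERPUD1, which organises the degradation complex in the membrane, had signals of 504 and 683 in mock cells, 629 and 768 in MT1 cells, and 435 and 552 in alpha3 cells (log2 fold change between the siRNAs 0.48 ± 0.23, adjusted p = 0.249). EDEM1, which marks misfolded glycoproteins by trimming mannose, had 377 and 591, 558 and 743, and 402 and 367 in the same order, with a difference between the siRNAs of 0.70 ± 0.25 (adjusted p = 0.149). SEL1L, the partner of the ubiquitin ligase HRD1, had 580.1 and 888, 1105 and 689.8, and 533 and 616, with a difference of 0.58 ± 0.28 (adjusted p = 0.253), and its 3 probe sets ranged from 0.16 to 0.58, with overlapping arrays on the 2 dimmer ones. Neither siRNA group of HERPUD1, EDEM1 or SEL1L separated from mock by the brightest probe set. The 2 mock arrays themselves differed there by 0.41, 0.61 and 0.59 on the log2 scale. On the 2 dimmer SEL1L probe sets, both MT1 arrays lay above both mock arrays (log2 fold changes 0.38 and 0.31), while alpha3 overlapped with mock.

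Of the feedback genes, PPP1R15A lay lower in MT1 cells. PPP1R15A (GADD34) directs a phosphatase to eIF2 and so ends the translational arrest. Its signals were 464 and 432 in mock cells, 337 and 242 in MT1 cells, and 361 and 535 in alpha3 cells. Both MT1 arrays were below the other 4, with log2 fold changes of -0.59 against mock (± 0.24, adjusted p = 0.321) and -0.57 against alpha3 cells (± 0.24, adjusted p = 0.209). Its other probe set gave -0.92 and -1.14. TRIB3, a pseudokinase that restrains ATF4 and AKT, had 696 and 734 in mock cells, 795 and 1487 in MT1 cells, and 502 and 935 in alpha3 cells. Its log2 fold change in MT1 cells was 0.59 ± 0.35 (adjusted p = 0.469), and 0.15 without MT1 replicate 2. That of CHAC1, described with the amino acid genes below, was 0.54 ± 0.73 (adjusted p = 0.771), and -0.75 without MT1 replicate 2 and 1.82 without MT1 replicate 1. NUPR1, a stress-induced chromatin factor, lay below the filter with signals from 16.4 to 68.7.

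**Figure D3:**
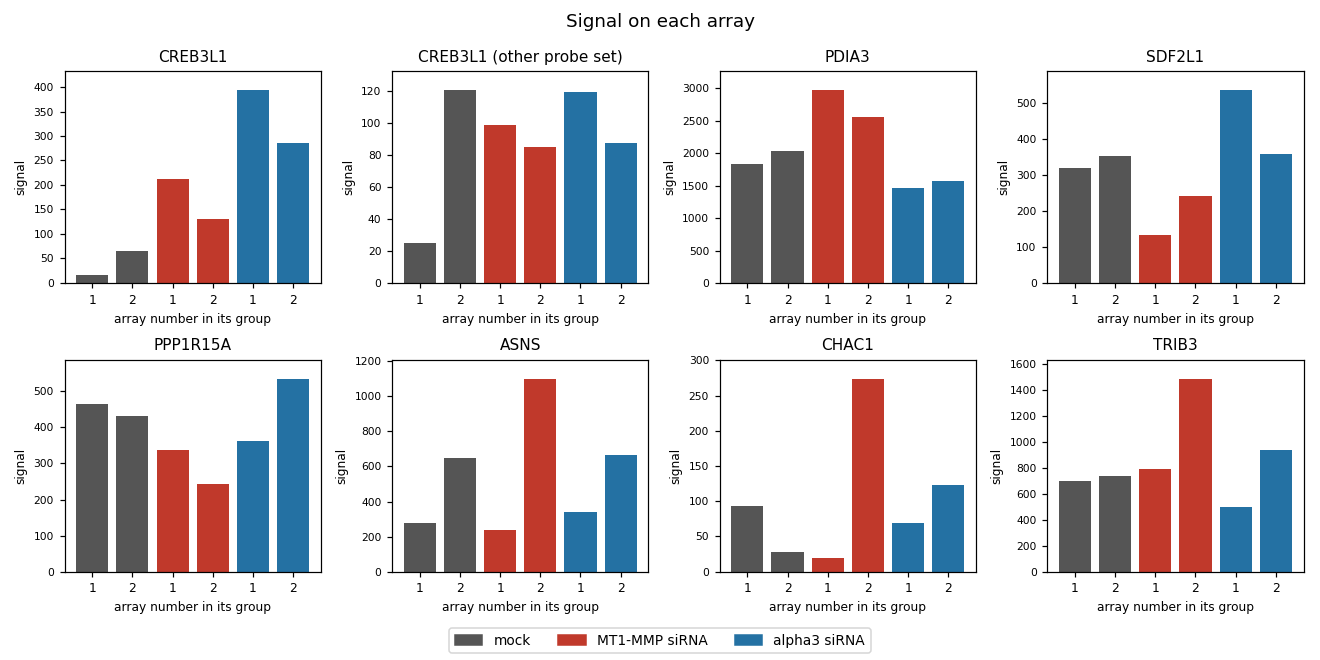
Bars are the deposited signal on each of the 6 arrays for 7 stress genes, with CREB3L1 shown by both probe sets, on linear axes that start at 0. Grey is mock, red MT1 and blue alpha3. In the upper row the siRNA groups stand apart from mock for the brighter CREB3L1 probe set but not for the other. In the lower row ASNS and CHAC1 differ mainly between the arrays of a group. TRIB3 differs between the arrays of each siRNA group but little between the mock arrays.

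Among the amino acid synthesis and transport genes, ASNS, PSAT1, PSPH, SLC3A2 and SLC7A5 overlapped in all 3 comparisons by the brightest probe set. The other PSPH probe set lay lower on both alpha3 arrays than in mock cells (log2 fold change -0.15). ASNS, asparagine synthetase, a classical ATF4 target with the composite core shown above, had signals of 277 and 649 in mock cells, 239 and 1099.8 in MT1 cells, and 338 and 665 in alpha3 cells. Its second array was higher in every group, by factors of 2.20, 4.17 and 1.88, and the log2 fold change of 0.27 in MT1 cells had a standard error of 0.64. PHGDH, the first enzyme of serine synthesis, did separate. It had 427 and 485 in mock cells, 601 and 707 in MT1 cells, and 321 and 456 in alpha3 cells, so that both MT1 arrays were the highest. Its difference between the siRNAs was 0.72 ± 0.22 (adjusted p = 0.111). SHMT2, the mitochondrial enzyme that takes a carbon unit from serine, had 1772 and 1627, 1209 and 1611, and 1291 and 1887 in the same order. It was lower on both MT1 arrays than in mock cells, with a log2 fold change of -0.28 ± 0.23 (adjusted p = 0.623), and its 3 probe sets ranged from -0.28 to 0.02. The 4 remaining, PSAT1, PSPH, SLC3A2 and SLC7A5, had log2 fold changes from -0.53 to 0.09 in MT1 cells and from -0.07 to 0.40 in alpha3 cells.

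In both siRNA groups, most of the amino acid genes shared a difference between the 2 arrays. This comparison was chosen after the values were seen, and it joins ATF4 with the tested feedback, synthesis and transport genes, 11 in all. The other transcription factors were left out, and the counts below depend on that choice. On the log2 scale, DDIT3 (-0.33 in the MT1 pair, -0.27 in the alpha3 pair) and CEBPB (-0.09 and -0.62) were lower on array 2. XBP1 was higher (0.53 and 0.13). In the MT1 pair, 10 of the 11 were higher on array 2, with a median difference of 0.88 on the log2 scale, where 51.4% of all genes were higher on that array (median 0.01). CHAC1, a glutathione-degrading enzyme with the composite core, had the widest gap, 19.5 against 274. PSAT1, the second enzyme of serine synthesis, had 470.0 against 1315. The exchanger subunit SLC7A5 had 596 against 1175, and its partner SLC3A2 had 228 against 466. PPP1R15A was the gene that lay lower on array 2.

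In the alpha3 pair, all 11 were higher on array 2, by a median of 0.62 and a range of 0.47 to 1.11, where 51.2% of all genes were. SLC7A5 had 853 against 1873 and CHAC1 had 69.5 against 124. In the mock pair 4 of the 11 were higher on array 2 (median -0.12), where 49.7% of all genes were, and CHAC1 had 93.1 against 27.7. The medians of the 11 genes against the mock mean were -0.48 and 0.40 in MT1 cells and -0.29 and 0.58 in alpha3 cells, so each siRNA group had 1 array below mock and 1 above. The group medians were 0.09 and 0.15. The folding and degradation genes showed no such gap. Of their 14 members 8 were higher on MT1 array 2 (median 0.08), 5 on alpha3 array 2 (-0.06) and 7 on mock array 2 (0.01). Beside these values, the alpha3 arrays had 2 and 86 probe sets under 1 and the MT1 arrays 56 and 91, and GAPDH had 3′ over 5′ ratios of 0.924 and 0.908, and 0.879 and 0.899. Their part in the difference was not tested.

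**Figure D4:**
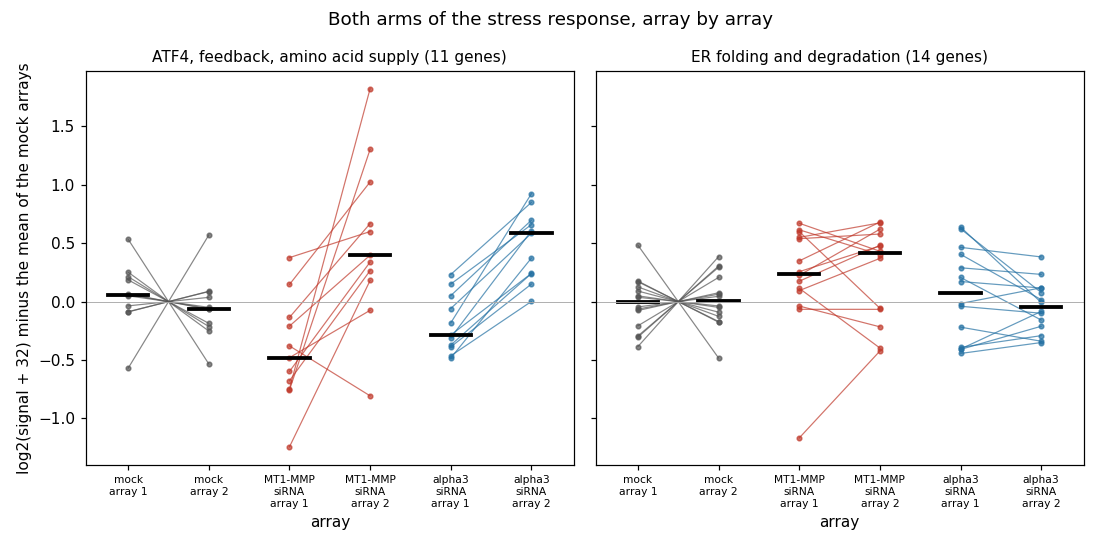
Points are single genes, lines join the 2 arrays of a group and black bars are medians, all as log2(signal + 32) minus the mean of the mock arrays. On the left, the 11 genes of ATF4, feedback and amino acid supply have medians of -0.48 and 0.40 in MT1 cells and -0.29 and 0.58 in alpha3 cells, and 1 line, PPP1R15A in MT1 cells, runs down. On the right, the 14 folding and degradation genes have medians of 0.24 and 0.42 in MT1 cells and 0.08 and -0.05 in alpha3 cells. Lines of the mock pair cross at 0 because the mean of both mock arrays is the reference.

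Other genes of the same pathways were listed separately. Of 33 further genes of endoplasmic reticulum quality control 28 were tested, and 0 passed in any comparison, with 6, 2 and 5 at an unadjusted p under 0.05 for MT1 against mock, alpha3 against mock and MT1 against alpha3, where 14.4%, 5.73% and 23.4% of all genes reached it. Their median log2 fold changes were 0.18, 0.10 and 0.05. ERO1A, the oxidase that recharges the disulphide isomerases, had signals of 414 and 428 in mock cells, 906 and 687 in MT1 cells, and 479 and 344 in alpha3 cells. It was higher in MT1 cells than in either other group, by 0.86 against mock (± 0.23, adjusted p = 0.192) and 0.91 against alpha3 cells (± 0.23, adjusted p = 0.0733). WFS1, a membrane protein that restrains ATF6, had 334 and 354 in mock cells, 229.7 and 241 in MT1 cells, and 243 and 212 in alpha3 cells. It was below mock on all 4 siRNA arrays (log2 fold changes -0.49 and -0.53, adjusted p = 0.289 and 0.851). LMAN1, a cargo receptor, had 0.77 in MT1 cells against mock, and CRELD2 had 0.46 and SIL1, an exchange factor of BiP, 0.42 in alpha3 cells. TRAM1 (-0.18 in MT1 cells) and DNAJC10 (-0.40 in alpha3 cells) lay lower. Between the siRNAs the chaperone HSPA13 differed by 0.67 and the translocon-associated SSR3 and SSR1 by -0.79 and -0.32.

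Of 28 further genes of the amino acid response 22 were tested, and 0 passed in any comparison, with 3, 2 and 3 at an unadjusted p under 0.05 in the same order, beside the same 14.4%, 5.73% and 23.4% of all genes. Their medians were 0.08, 0.20 and -0.19. ATF3, a stress-induced repressor, had signals of 78.7 and 73.3 in mock cells, 112 and 143 in MT1 cells, and 167 and 139 in alpha3 cells. All 4 siRNA arrays were above mock, with log2 fold changes of 0.56 ± 0.22 (adjusted p = 0.296) and 0.77 ± 0.22 (adjusted p = 0.824). SLC1A5, the glutamine carrier, had 448 and 249 in mock cells, 161 and 344 in MT1 cells, and 487 and 667 in alpha3 cells. It was lower in MT1 than in alpha3 cells (log2 fold change -1.16 ± 0.37, adjusted p = 0.115) and higher in alpha3 cells than in mock by 0.71. VLDLR, a lipoprotein receptor, had a log2 fold change of 0.77 in MT1 cells against mock and of 0.99 against alpha3 cells (± 0.26, adjusted p = 0.0833). STC2, a secreted glycoprotein, had 1.00 against mock and 0.58 against alpha3 cells. EIF2S1, the subunit of eIF2 that the stress kinases phosphorylate, had -0.41 and ATF5 -0.27 in MT1 cells against mock. SLC38A2 had -0.12 in alpha3 cells against mock, and GADD45A had -0.61 between the siRNAs. In the MT1 pair 16 of these 22 genes were higher on array 2 (median 0.37), as were 14 in the alpha3 pair (0.26) and 6 in the mock pair (-0.22).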

How the data were processed

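The authors deposited 1 signal intensity per probe set and array, on a linear scale. A trimmed mean over the middle 96% of each array came to 250.1, so arrays had been put on a common scale before deposit. The summarisation method, background method and genome build are not named in the labels used here. The number of arrays limits the precision. Names came from the supplied platform annotation, in which 19065 probe sets had 1 symbol. The 3 probe sets that name HSP90B1 or PHGDH together with other genes were left out.

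Values were floored at 1 and taken as log2(value + 32). The filter kept the 11828 singly named probe sets whose mean exceeded the 40th percentile (signal 47.5), and the brightest per gene left 8045 genes. A model of 3 group means over the 6 arrays was fitted with limma 3.58.1 under R 4.3.3 (lmFit, eBayes with trend, 3 residual and 5.35 prior degrees of freedom). The p-values were adjusted over the 8045 genes by Benjamini-Hochberg. An exact permutation test of 2 arrays against 2 cannot go below a two-sided p of 0.333, so none was run. The fit was tested on simulated data.

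The genes, role groups and further lists were chosen with earlier results of these data known. Values on every array are given for the 5 widest differences each way per comparison among genes whose arrays do not overlap, and for HSPA5, HERPUD1, XBP1, ATF4, DDIT3, ASNS, TRIB3, EIF2AK3, ERN1 and ATF6. Of each further list, up to 2 genes each way per comparison are named. CHAC1, PSAT1, SLC3A2 and SLC7A5 were added after their values were seen. Further probe sets that differed in sign or by over 1.5 times are given above for some comparisons only. For alpha3 against mock, SEL1L ranged from -0.31 to 0.23 and SHMT2 from -0.17 to 0.23. PPP1R15A ranged there from -0.02 to 0.23 and PDIA6 from -0.08 to 0.14. For MT1 against alpha3, CALR ranged from -0.27 to 0.12. Differences in size alone were left out for some comparisons of HSP90B1, PDIA4, PDIA6, CANX and SHMT2. The alternatives covered scaling, offset, filter, probe set choice, trend, 2-group fits, a replicate block and leaving out each array. Figures were drawn with matplotlib 3.10.9.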

Additional observations from a re-analysis of the deposited data

How the results depend on the processing

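Of 17 alternatives, only the 60th percentile filter brought a stress gene past the limma threshold: 1, PDIA3 between MT1 and alpha3. Counts over all genes moved more. Against mock, 0 genes passed for MT1 and up to 11 under the alternatives, 2 for alpha3 and 0 to 9. Between MT1 and alpha3, 112 passed, but 22 with no filter, 178 at the 60th percentile, 69 with an offset of 1, 6 without alpha3 replicate 2 and 0 without either MT1 array. The same replicate numbers were not treated as pairing arrays, since deviations of same-numbered arrays correlated at -0.18, -0.18 and 0.13. In a fit with a replicate block, 0 stress genes passed in each comparison, and 11, 4 and 114 of all genes did.

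Leaving out each array in turn moved the median log2 fold change of the 33 stress genes between 0.11 and 0.40 for MT1 against mock (0.11 without MT1 replicate 2), between -0.02 and 0.13 for alpha3 against mock, and between -0.02 and 0.25 for MT1 against alpha3 (-0.02 without alpha3 replicate 1). Over all 33 stress genes, leaving out 1 array turned the sign of 12 for MT1 against mock, 16 for alpha3 against mock and 10 for MT1 against alpha3. Genes far from 0 were among them, as CHAC1 ranged from -0.75 to 1.82 and PSAT1 from -1.24 to 0.18 for MT1 against mock. For the genes chosen by the naming rule, the ranges for MT1 against mock were -0.76 to 1.30 for ASNS, -0.14 to 0.67 for ATF4, -0.01 to 0.40 for ATF6 and -0.26 to 0.27 for XBP1. For alpha3 against mock they were -0.42 to 0.72 for ASNS, -0.11 to 0.19 for EIF2AK3, -0.27 to 0.11 for ERN1, -0.07 to 0.18 for HSPA5, -0.48 to 0.37 for TRIB3 and -0.18 to 0.30 for XBP1. For MT1 against alpha3 they were -0.90 to 1.16 for ASNS, -0.51 to 0.29 for ATF4, -0.18 to 0.20 for ERN1 and -0.32 to 0.21 for XBP1. In that comparison ERN1 was also -0.05 after quantile normalization and -0.01 at a common 75th percentile, and TRAM1 was 0.04 for MT1 against mock as the mean of its probe sets. The cause of these changes was not tested. Among the genes chosen by the naming rule, the 1204 other values kept their direction and side of the threshold, and 1, that of PDIA3, passed it. Many of the 1204 could not change direction. The filter, trend, 2-group, replicate block and every-probe-set settings leave the log2 fold change of a tested gene as it is. So does leaving out an array of a group that is not compared. For CREB3L1 an offset of 1 gave 2.30 for MT1 and 3.31 for alpha3 against mock, an offset of 100 gave 0.95 and 1.65, and the mean of probe sets gave 0.97 and 1.48. No detection calls were used, so how far dim signals lie above background is unknown.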
